A study of Homo sapiens with 4 samples.

Results

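Among the genes measured on 4 arrays of OVSAYO cells, those of Mediator and TFIID, the complexes that carry signals from DNA-bound activators to RNA polymerase II, were examined. The genes were chosen by name, as all array probes whose RefSeq accession belongs to a symbol of MED or TAF followed by a number, or to TBP, TBPL1, CDK8, CDK19 or CCNC. This gave 59 of 17721 genes on the array, with 81 of 41000 probes. They comprise 33 Mediator genes, 14 TFIID genes, 5 paralogs of TFIID subunits, 2 TAFs of the SAGA complex, 4 TAFs of the RNA polymerase I factor SL1, and TAF15, an RNA-binding protein of the FET family.

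OVSAYO is an established human cell line from a clear cell carcinoma of the ovary. Cells had received a negative control siRNA (NS-si) or a pool of siRNAs against Sp1 (Sp1-si) by transfection, and cells of each kind were left without or exposed to 0.5 mM CoCl2, a hypoxia-mimicking agent, for 4 h (NS-si → CoCl2 and Sp1-si → CoCl2). The labels give 40 h of culture after transfection for all 4 conditions, which differs from the interval in the legend of the study, and the knockdown was transient, in a single cell line and with a single siRNA pool. Each condition was measured on 1 single-colour Agilent array, all on 1 slide, so that a ratio between conditions is a difference between a pair of arrays, no test was possible and precision is limited by this single array per condition. The study asked which genes need Sp1 for their response to CoCl2.

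Mediator is a large complex that bridges activators and RNA polymerase II. Its head and middle contact the polymerase, its tail receives most activators, MED14 joins these parts as a scaffold, and a separable kinase module with CDK8 or CDK19, cyclin C, MED12 and MED13 binds reversibly. TFIID, made of TBP and the TAFs, recognises core promoters. Both have a history with Sp1, a zinc finger protein that binds GC boxes, since a TFIID subunit, TAF4, is contacted by the activation domains of Sp1, and a form of Mediator named CRSP was purified as a cofactor required by Sp1.

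Signals are given below as the intensities deposited for each array, and ratios as log2 ratios after the 75th percentile of each array was subtracted. This percentile lay at a signal of 1143 (NS-si), 1100 (Sp1-si), 977 (NS-si → CoCl2) and 1287 (Sp1-si → CoCl2). Without this scaling the median of all genes shifted by -0.23 for NS-si → CoCl2/NS-si, 0.23 for Sp1-si → CoCl2/Sp1-si, -0.06 in the ratio Sp1-si/NS-si and 0.40 in the ratio Sp1-si → CoCl2/NS-si → CoCl2. A ratio nearer to 0 than its shift and of the opposite sign therefore has no settled sign. Other small ratios can change sign under the alternatives given further on. The error given with a ratio is the SD expected from the spread of spots of 1 probe on an array, taken for TBP from its own 10 spots and for all other genes from 10-spot probes of like signal, and it covers neither cultures nor arrays. Its median over the genes was 0.074 for NS-si → CoCl2/NS-si. SP1 itself, with 10 spots, had signals of 553 (NS-si), 39.2 (Sp1-si), 429 (NS-si → CoCl2) and 38.7 (Sp1-si → CoCl2), and its log2 ratio of Sp1-si to NS-si was -3.77. The HIF target VEGFA was at 2.34 for NS-si → CoCl2/NS-si by the probe with the highest mean signal. All 8 markers of clear cell carcinoma epithelium were well above background on all 4 arrays, whereas PTPRC, PECAM1, CDH5, COL3A1 and WT1 were on none. Of the fibroblast markers, COL1A2 had signals of 77.5 and 67.2 in NS-si cells without and with CoCl2 and of 8.69 and 11.7 in Sp1-si cells. Those of DCN lay closer together, at 29.4 and 23.4 in NS-si cells and 15.4 and 20.4 in Sp1-si cells. The summed signal of the 3 fibroblast markers on the array was 92.4 to 110 in NS-si cells and 26.7 to 34.8 in Sp1-si cells, and the part of this in the results below was not tested. As these are RNA levels of bulk cultures, a lower level per cell and fewer cells expressing a gene cannot be told apart.

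Nearly all of these genes were expressed, and few of them differed past 2-fold between the arrays by the probe with the highest mean signal. Of the 59 genes, 58 were well above background on all 4 arrays, and MED12L, a paralog of MED12, was on none. With CoCl2, 4 of 58 genes differed past 2-fold in NS-si cells (6.9%), against 7.73% of all measured genes, and 1 of 58 did so in Sp1-si cells (1.72%), against 7.65%. In NS-si cells these were 2 higher (4.22% of all genes were higher) and 2 lower (3.52%), and in Sp1-si cells 0 higher (3.65%) and 1 lower (4%). Between Sp1-si and NS-si cells, 4 genes differed past 2-fold without CoCl2 (6.9%, against 12.4% of all genes) and 1 with CoCl2 (1.72%, against 15.2%). Of these, 2 were higher (6.2% of all genes) and 2 lower (6.17%) without CoCl2, and 1 was higher (7.13%) and 0 lower (8.07%) with it. The CoCl2 ratio of Sp1-si cells minus that of NS-si cells passed 2-fold in 2 genes (3.45%, against 3.86%), 1 upward (0.973% of all genes) and 1 downward (2.88%), and 1.5-fold in 8 (13.8%, against 13.6%). The median ratio over the 58 genes was -0.014 for CoCl2 in NS-si cells, -0.063 for CoCl2 in Sp1-si cells, 0.060 in the ratio Sp1-si/NS-si and -0.047 in the ratio Sp1-si → CoCl2/NS-si → CoCl2, and the corresponding medians over all genes were 0.0027, -0.0014, -0.012 and -0.017. Without scaling, the genes above 0 went from 27 to 13, from 25 to 38, from 31 to 29 and from 27 to 44 of 58 in the same order.

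**Figure D1:**
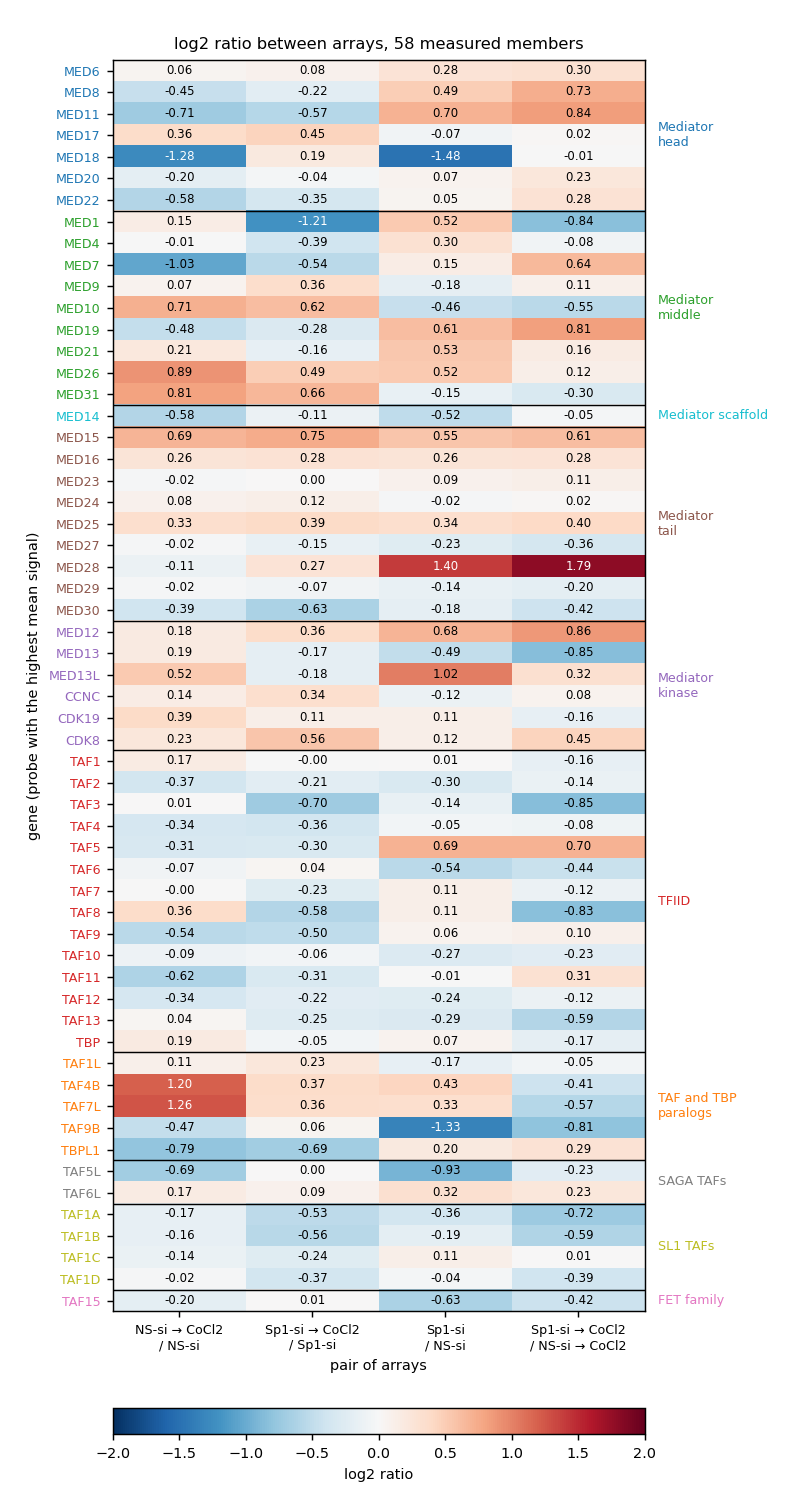
Heat map of the log2 ratio (colour and printed number) of 58 genes, in rows grouped by role, for 4 pairs of arrays in columns. Most cells are pale, and those past 2-fold are MED18, MED7, TAF4B and TAF7L in the first column, MED1 in the second, MED18, MED28, MED13L and TAF9B in the third and MED28 in the fourth.

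At 1.5-fold, the shares were 20.7% of the 58 genes for CoCl2 in NS-si cells against 21.3% of all genes, 12.1% against 21.8% for CoCl2 in Sp1-si cells, 17.2% against 28% between Sp1-si and NS-si cells without CoCl2, and 27.6% against 34.8% with CoCl2. The 8 genes past 2-fold in at least 1 of these comparisons were MED1, MED7, MED13L, MED18, MED28, TAF4B, TAF7L and TAF9B. The promoters of 5 of them, those with 1 window in the RefSeq promoter table, are shown because the knocked-down factor binds GC boxes. Given are the 250 bases before the RefSeq start site (GRCh38.p14), 5′ to 3′ on the strand of the gene, with the GC box core GGGCGG or its reverse complement in capitals. They lie at chr17:39451264-39451513 (MED1, minus strand), chr1:28328790-28329039 (MED18, plus strand), chr12:116277694-116277943 (MED13L, minus strand), chr18:26226195-26226444 (TAF4B, plus strand) and chrX:78139651-78139900 (TAF9B, minus strand).
MED1: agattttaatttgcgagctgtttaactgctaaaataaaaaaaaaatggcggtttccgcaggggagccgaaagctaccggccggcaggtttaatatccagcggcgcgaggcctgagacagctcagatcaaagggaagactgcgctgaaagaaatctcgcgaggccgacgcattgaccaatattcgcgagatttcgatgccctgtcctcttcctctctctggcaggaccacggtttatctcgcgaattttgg
MED18: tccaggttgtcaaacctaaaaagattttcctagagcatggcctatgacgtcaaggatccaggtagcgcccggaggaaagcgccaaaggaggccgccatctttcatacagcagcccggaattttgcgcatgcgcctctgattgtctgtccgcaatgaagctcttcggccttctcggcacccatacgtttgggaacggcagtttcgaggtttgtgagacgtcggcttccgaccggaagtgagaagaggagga
MED13L: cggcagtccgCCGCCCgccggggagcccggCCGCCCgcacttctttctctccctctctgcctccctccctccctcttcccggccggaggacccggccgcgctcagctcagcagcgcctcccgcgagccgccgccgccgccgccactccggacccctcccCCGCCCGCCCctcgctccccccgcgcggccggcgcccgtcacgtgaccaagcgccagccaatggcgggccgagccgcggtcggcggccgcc
TAF4B: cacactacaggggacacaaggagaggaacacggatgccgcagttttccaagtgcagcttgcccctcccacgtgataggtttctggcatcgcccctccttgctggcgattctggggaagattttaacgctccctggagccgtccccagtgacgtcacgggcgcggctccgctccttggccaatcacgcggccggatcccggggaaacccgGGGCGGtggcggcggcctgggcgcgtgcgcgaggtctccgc
TAF9B: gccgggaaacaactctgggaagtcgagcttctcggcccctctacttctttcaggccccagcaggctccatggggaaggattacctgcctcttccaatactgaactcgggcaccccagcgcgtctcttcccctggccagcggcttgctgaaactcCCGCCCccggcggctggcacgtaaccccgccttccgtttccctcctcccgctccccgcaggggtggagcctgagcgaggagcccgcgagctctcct
By the probe with the highest mean signal, the CoCl2 ratios of MED1 and MED18 differed most between NS-si and Sp1-si cells. Other probes of MED13L, TAF3 and TAF2 differed by -1.94, -1.50 and -1.39. MED1 and MED18 have no GC box core in these bases. MED13L has 4, 2 of them overlapping in 1 stretch, and TAF4B and TAF9B have 1 each. Of the genes not shown, MED7 and TAF7L have 1 core in 1 of their 2 windows, and MED28 has no window. A match is a description of letters, and its absence says only that these letters are not in this window.

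By the probe with the highest mean signal, MED1 of the middle had the CoCl2 ratio of largest size in Sp1-si cells, although second probes of TAF3, TAF2 and MED13L, given further on, were lower and the mean over its own 3 probes did not pass 2-fold. MED1, the subunit through which nuclear receptors contact Mediator, had signals of 3553 (NS-si), 3363 (NS-si → CoCl2), 4891 (Sp1-si) and 2476 (Sp1-si → CoCl2). The Sp1-si array was the highest and the Sp1-si → CoCl2 array the lowest. The CoCl2 ratio of NS-si cells was 0.15 (SD between spots 0.064, and -0.079 without scaling) and that of Sp1-si cells -1.21 (0.069), which differ by -1.36 (0.094). The other MED1 probes gave -0.88 and -0.74 for CoCl2 in Sp1-si cells, with 0.02 and 0.28 in NS-si cells, so that the direction was the same for all 3 probes in every ratio while only 1 probe passed 2-fold in Sp1-si cells. Without scaling the ratio of the main probe was -0.98 and did not pass 2-fold. Its spot on the Sp1-si array was marked by the scanner software as a background outlier, and the part of this was not tested. Relative to NS-si cells, MED1 was at 0.52 in Sp1-si cells without CoCl2 and at -0.84 with CoCl2.

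MED7, which forms with MED21 the hinge of the middle, had signals of 1742 (NS-si), 728 (NS-si → CoCl2), 1865 (Sp1-si) and 1498 (Sp1-si → CoCl2). It was 2.05-fold lower with CoCl2 in NS-si cells (log2 ratio -1.03, SD between spots 0.073), and its ratio was -0.54 in Sp1-si cells. The NS-si → CoCl2 array alone was far from the others. MED26, which links Mediator to elongation factors, had the highest CoCl2 ratio of the middle in NS-si cells, with signals of 3132 (NS-si), 4972 (NS-si → CoCl2), 4317 (Sp1-si) and 7111 (Sp1-si → CoCl2) and CoCl2 ratios of 0.89 with NS-si and 0.49 with Sp1-si. Its second probe gave 0.99 and 0.52. MED10 (0.71 and 0.62) and MED31 (0.81 and 0.66), 2 further subunits of the middle, passed 1.5-fold with CoCl2 in both kinds of cells. MED19, also in the middle, was lower with CoCl2 and higher with Sp1 siRNA. Its ratio was 0.61 between Sp1-si and NS-si cells without CoCl2 and 0.81 with it, against -0.48 and -0.28 for CoCl2.

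Of the 7 head genes of Mediator, 5 had a CoCl2 ratio below 0 in NS-si cells, with a median of -0.45, and 6 of 7 without scaling, while 7256 of 14620 genes in all were below 0. In Sp1-si cells 4 of 7 were below 0, with a median of -0.04 that became 0.19 without scaling, where 2 of 7 were below 0. The difference between the CoCl2 ratios was above 0 for 7 of 7 head genes, from 0.03 for MED6 to 1.47 for MED18. Among all genes 7345 of 14283 were above 0. The count of 7 held under each of the other scalings tried. These moved the median of all genes upward in the difference, by 0.03 to 0.45, so they could hardly lower that count. This is a description of 7 genes on 4 arrays. MED18, which forms with MED8 and MED20 the movable jaw of the head, had signals of 39.9 (NS-si), 14.1 (NS-si → CoCl2), 13.8 (Sp1-si) and 18.5 (Sp1-si → CoCl2). The NS-si array was the highest and the other 3 were close to each other. The ratios were -1.28 for CoCl2 in NS-si cells (SD between spots 0.22), 0.19 for CoCl2 in Sp1-si cells (0.26) and -1.48 for Sp1-si/NS-si (0.23). These signals are dim, since the lowest signal well above background was 6.72 to 10.2 on the 4 arrays, and a normexp background correction with an offset of 50 brought these ratios to -0.23, -0.10 and -0.39.

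MED11, a small head subunit, was lower with CoCl2 and higher with Sp1 siRNA in all 4 comparisons. Its signals were 634 (NS-si), 331 (NS-si → CoCl2), 991 (Sp1-si) and 780 (Sp1-si → CoCl2), with ratios of -0.71 and -0.57 for CoCl2 and of 0.70 and 0.84 for Sp1 siRNA. MED8 had ratios of -0.45 and -0.22 for CoCl2 and of 0.49 and 0.73 for Sp1 siRNA. Its second probe differed, with 0.06 for CoCl2 in Sp1-si cells and -0.04 for Sp1-si/NS-si. MED17, the central subunit of the head, had CoCl2 ratios of 0.36 and 0.45, and ratios of -0.07 and 0.02 for Sp1 siRNA. Its second probe gave 0.07 and 0.33 for CoCl2 and 0.20 and 0.45 for Sp1 siRNA. MED14, the scaffold, had signals of 498 (NS-si), 285 (NS-si → CoCl2), 335 (Sp1-si) and 364 (Sp1-si → CoCl2), with CoCl2 ratios of -0.58 (NS-si) and -0.11 (Sp1-si).

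**Figure D2:**
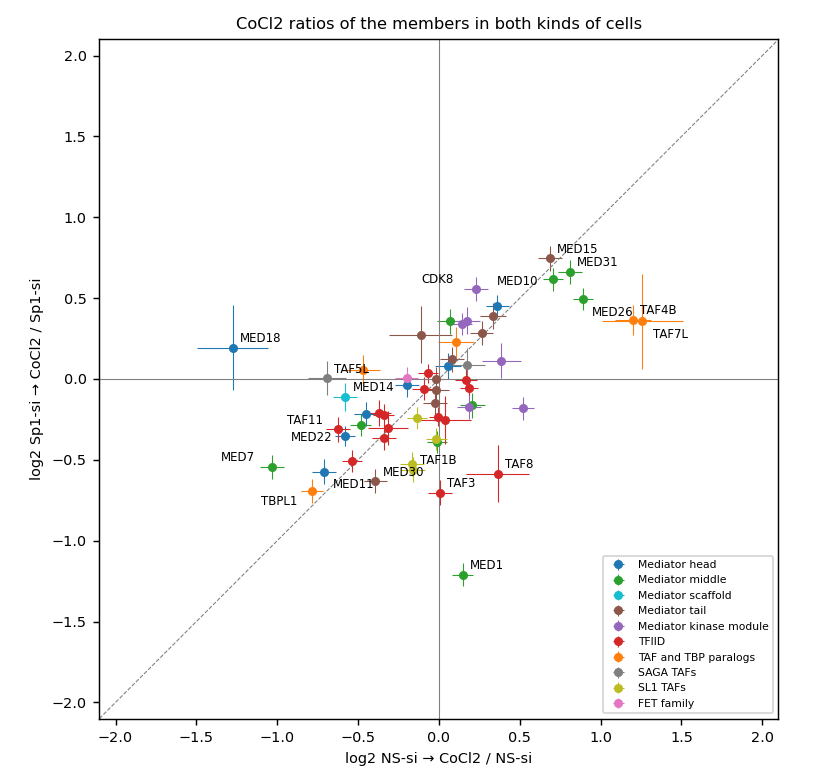
Log2 CoCl2 ratio of each of the 58 genes in NS-si cells (x axis) and in Sp1-si cells (y axis), coloured by role, with bars of 1 SD between spots and the line of equal ratios dashed. The ratios share no array, MED1 lies far below the line at 0.15 and -1.21, and MED18 far above it at -1.28 and 0.19.

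In the tail of Mediator, MED15, MED28 and MED30 had a ratio past 1.5-fold. MED15, a tail subunit contacted by activators such as SREBP, had signals of 475 (NS-si), 654 (NS-si → CoCl2), 670 (Sp1-si) and 1315 (Sp1-si → CoCl2), with CoCl2 ratios of 0.69 and 0.75 and Sp1 siRNA ratios of 0.55 and 0.61. MED28, grouped here with the tail, had the highest Sp1 siRNA ratios of all 58 genes. Its signals were 21.8 and 17.3 in NS-si cells without and with CoCl2 and 55.4 and 78.5 in Sp1-si cells, so both Sp1-si arrays lay above both NS-si arrays. The log2 ratio was 1.40 without CoCl2 (SD between spots 0.18) and 1.79 with CoCl2 (0.19), which is 2.64-fold and 3.45-fold higher. The probe is dim, it is the only one of the gene, and after the normexp correction the ratios were 0.53 and 0.42. MED23, a target of Ras signalling through ELK1, had ratios of -0.02, 0.0004, 0.09 and 0.11 in the 4 pairs of arrays, and its second probe gave -0.16, -0.20, -0.33 and -0.38. MED30 had CoCl2 ratios of -0.39 and -0.63.

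The kinase module had ratios above 0 for CoCl2 in NS-si cells in 6 of 6 measured genes, from 0.14 (CCNC, the cyclin) to 0.52 (MED13L) by the probe with the highest mean signal. Second probes of MED13 and MED13L were past 1.5-fold in this ratio, at 0.92 and 0.61. Without scaling only 3 of 6 genes were above 0. With scaling, 7364 of 14620 genes in all were above 0 in this ratio. CDK8, the kinase of the module, had CoCl2 ratios of 0.23 (NS-si) and 0.56 (Sp1-si), and its paralog CDK19 at 0.39 and 0.11. MED12, which activates the kinase, had signals of 225 (NS-si), 217 (NS-si → CoCl2), 346 (Sp1-si) and 521 (Sp1-si → CoCl2), with Sp1 siRNA ratios of 0.68 without and 0.86 with CoCl2. MED13 and MED13L, paralogs that tether the module to the rest of Mediator, went apart. MED13L had signals of 1155 (NS-si), 1418 (NS-si → CoCl2), 2259 (Sp1-si) and 2330 (Sp1-si → CoCl2), and a ratio of 1.02 for Sp1-si/NS-si (SD between spots 0.073) and of 0.32 with CoCl2. The former was 0.97 without scaling and after the normexp correction, which is not past 2-fold. MED13 was at -0.49 and -0.85. Of the second probes, that of MED13 gave 0.11 and -0.06, and that of MED13L 0.89 and -1.05.

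Of the 14 TFIID genes, 0 passed 2-fold in any of the 4 ratios by the probe with the highest mean signal, against the shares of 7.73%, 7.65%, 12.4% and 15.2% of all genes. Other probes of TAF2 and TAF3 did pass, as did TAF3 when its probes were averaged. TBP, the TATA-binding protein, was measured with 10 spots and had signals of 977 (NS-si), 950 (NS-si → CoCl2), 985 (Sp1-si) and 1111 (Sp1-si → CoCl2). Its ratios were 0.19 (SD between spots 0.053), -0.05 (0.046), 0.07 (0.051) and -0.17 (0.048), and its 4 signals are close to each other. With CoCl2, 9 of 14 TFIID genes were below 0 in NS-si cells and 13 of 14 in Sp1-si cells, with a median of -0.24 in the latter. Of all genes, 7256 of 14620 were below 0 in NS-si cells and 7251 of 14453 in Sp1-si cells. Under median scaling 10 of 14 and without scaling 8 of 14 were below 0 in Sp1-si cells. For Sp1-si → CoCl2/NS-si → CoCl2, 11 of 14 were below 0, and 4 of 14 without scaling. With scaling, 7371 of 14398 genes in all were below 0 in this ratio.

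TAF3 has a PHD finger that reads methylated histone H3. By the probe with the highest mean signal, it had the lowest ratio of TFIID between the arrays with CoCl2, at -0.85. Its signals were 1478 (NS-si), 1269 (NS-si → CoCl2), 1288 (Sp1-si) and 925 (Sp1-si → CoCl2), and its CoCl2 ratios were 0.0060 (NS-si) and -0.70 (Sp1-si). The second TAF3 probe gave -0.30 and -1.80, and -1.51 between the arrays with CoCl2. Between these arrays a TAF2 probe of lower mean signal was lower still, at -1.67. TAF8 was at 0.36 and -0.58 with signals of 26.6 to 35.9, which is dim. TAF9, a histone fold subunit shared with SAGA, was lower with CoCl2 in both kinds of cells, at -0.54 and -0.50, and its second probe gave -0.53 and -0.44. TAF4, the subunit contacted by Sp1, had CoCl2 ratios of -0.34 and -0.36 and Sp1 siRNA ratios of -0.05 and -0.08. TAF5, a WD40 subunit, was higher with Sp1 siRNA at 0.69 and 0.70, with signals of 42.6 to 96.1, and at 0.38 and 0.23 after the normexp correction. TAF6 was at -0.54 and -0.44 and TAF1, the largest subunit, at 0.01 and -0.16 for Sp1 siRNA. TAF7, which restrains the acetyltransferase of TAF1, had signals between 12046 and 14697 and ratios from -0.23 to 0.11.

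**Figure D3:**
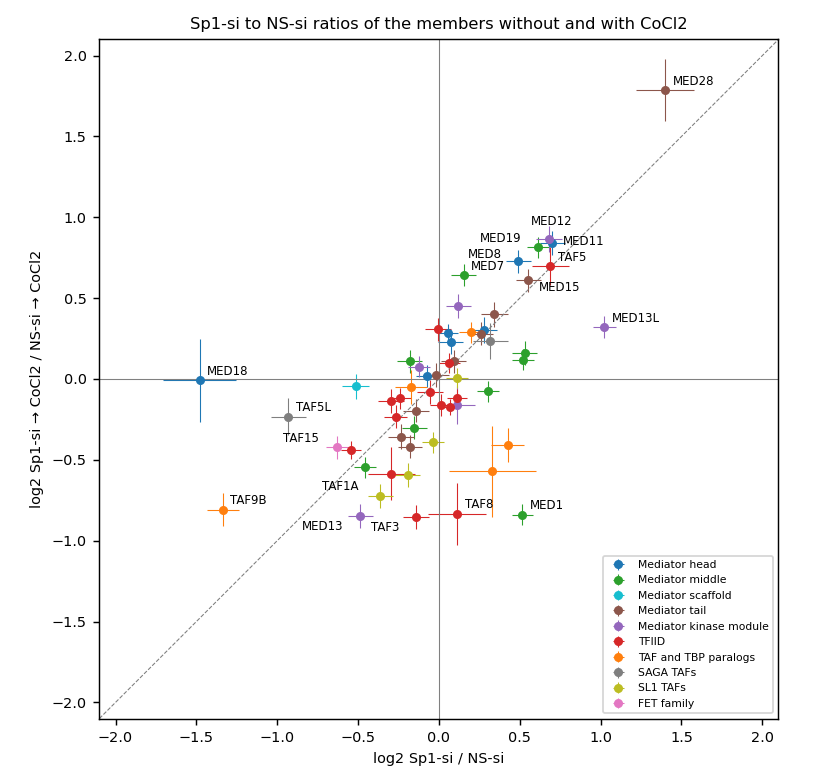
Log2 ratio of Sp1-si to NS-si cells for each of the 58 genes without CoCl2 (x axis) and with CoCl2 (y axis), coloured by role, with bars of 1 SD between spots and the line of equal ratios dashed. The ratios share no array, MED28 is the highest in both at 1.40 and 1.79, and TAF9B the only gene below -0.8 in both.

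Of the 5 paralogs of TFIID subunits, TAF4B, TAF7L and TAF9B passed 2-fold in 1 ratio each, and after the normexp correction these ratios were 0.84, 0.49 and -0.91, none past 2-fold. TAF4B, a TAF4 paralog known from ovarian follicles and B cells, had signals of 76.3 (NS-si), 150.0 (NS-si → CoCl2), 98.6 (Sp1-si) and 149 (Sp1-si → CoCl2). The arrays with CoCl2 were both higher than those without. The CoCl2 ratio was 1.20 in NS-si cells (SD between spots 0.11) and 0.37 in Sp1-si cells (0.094). TAF7L, a TAF7 paralog of germ cells, was dim, with signals of 11.2 (NS-si), 23.0 (NS-si → CoCl2), 13.6 (Sp1-si) and 20.4 (Sp1-si → CoCl2) and CoCl2 ratios of 1.26 (0.25) and 0.36 (0.29), the latter at -0.19 after the normexp correction. TAF9B, a TAF9 paralog, had signals of 243 (NS-si), 150.1 (NS-si → CoCl2), 92.8 (Sp1-si) and 113 (Sp1-si → CoCl2). Both Sp1-si arrays lay below both NS-si arrays, with ratios of -1.34 without (0.099) and -0.81 with CoCl2 (0.10). Its second, dimmer probe gave -0.35 and -0.61. TBPL1, a TBP relative that acts at promoters without a TATA box, was lower with CoCl2 in both kinds of cells, with signals of 1963 (NS-si), 974 (NS-si → CoCl2), 2165 (Sp1-si) and 1568 (Sp1-si → CoCl2) and ratios of -0.79 and -0.69. TAF1L is a retrocopy of TAF1. Its probe had ratios of 0.11, 0.23, -0.17 and -0.05, and the second TAF1 probe had 0.07, 0.22, -0.16 and -0.01, so the 2 transcripts could not be told apart by these probes.

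Among the TAFs outside TFIID, TAF5L, a SAGA subunit, had ratios of -0.69 for CoCl2 in NS-si cells and -0.93 for Sp1-si/NS-si, but its second probe gave -0.29 and -0.31. TAF15 was at -0.63 for Sp1-si/NS-si and at -0.42 with CoCl2. The 4 TAFs of SL1, which starts transcription of ribosomal RNA genes, were by the probe with the highest mean signal below 0 for CoCl2 in Sp1-si cells in 4 of 4, from -0.56 (TAF1B) to -0.24 (TAF1C), with a median of -0.45, and remained below 0 under each scaling. In NS-si cells these probes were also below 0, with a median of -0.15. Of all genes, 7251 of 14453 were below 0 in Sp1-si cells and 7256 of 14620 in NS-si cells. The second TAF1C probe was above 0 in both, at 0.15 in Sp1-si and 0.21 in NS-si cells.

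Of the ratios that share no array, both CoCl2 ratios were above 1.5-fold for MED10, MED15 and MED31 (5.17% of the genes, against 5.76% of all genes) and below it for TBPL1 (1.72%, against 5.25%). Both Sp1 siRNA ratios were above 1.5-fold for MED11, MED12, MED19, MED28 and TAF5 (8.62%, against 10.3%) and below it for TAF9B (1.72%, against 9.75%). Without scaling, MED10 and MED15 (0.48 and 0.46 for CoCl2 in NS-si cells), TBPL1 (-0.47 for CoCl2 in Sp1-si cells), MED19 (0.56 without CoCl2) and TAF9B (-0.41 with CoCl2) no longer passed in both, and after the normexp correction MED15, MED19, MED28 and TAF5 did not. Across the 58 genes Pearson's r was 0.54 between the CoCl2 ratios, against 0.70 across all 14283 genes measured on every array, and 0.63 between the Sp1 siRNA ratios, against 0.82. These values describe genes of the same 4 arrays, and genes are not independent replicates. The CoCl2 ratios had the same sign in 72.4% of both sets of genes.

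Probes of the same gene show how far a single probe can be trusted. Of the 59 genes, 18 had several probes, and all probes of a gene had the same sign in 14 of 18 genes for CoCl2 in NS-si cells, 10 for CoCl2 in Sp1-si cells, 11 between Sp1-si and NS-si cells without CoCl2 and 15 with it. The median gap between the highest and lowest probe of a gene was 0.22, 0.39, 0.15 and 0.34 in the same order, which is larger than the SD between spots. Over all 80 measured probes, 5 were past 2-fold lower for CoCl2 in Sp1-si cells (6.25%, against 4.38% of all probes with a symbol), 1 each of MED1, MED13L, TAF2, TAF3 and TAF5L. In the latter 4 genes the probe with the highest mean signal did not pass 2-fold. TAF2, which contacts the initiator of core promoters, had 3 probes with CoCl2 ratios in Sp1-si cells of -0.21, -0.26 and -1.73, and their ratios in NS-si cells were -0.37, -0.18 and -0.34. The second probe of TAF5L gave -1.18 and that of MED13L, which is dim, -1.33. In the other direction 1 probe passed 2-fold (1.25%, against 3.72%), the second of MED10, at 1.05. In the difference of the CoCl2 ratios, 5 probes were past 2-fold lower (6.25%, against 3.5%) and 1 higher (1.25%, against 1%). The lower ones were probes of MED1 (-1.36 and -1.03), MED13L (-1.94), TAF3 (-1.50) and TAF2 (-1.39). For Sp1-si → CoCl2/NS-si → CoCl2, 4 probes were past 2-fold lower (5%, against 8.2%) and 1 higher (1.25%, against 6.85%).

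The 8 CRSP subunits, named for Sp1, were spread on both sides of 0. Their median was 0.04 for Sp1-si/NS-si, from -0.52 (MED14) to 0.52 (MED26), and 0.02 with CoCl2, from -0.84 (MED1) to 0.64 (MED7), and 0 of 8 passed 2-fold in either of these ratios. Other genes of RNA polymerase II initiation, a list of the general factors and polymerase subunits with 29 of 31 genes on the array, had 0 of 29 past 2-fold in any ratio. The medians of this list were -0.24 and -0.12 for CoCl2 in NS-si and Sp1-si cells, and -0.08 and -0.12 for Sp1 siRNA without and with CoCl2. In NS-si cells 20 of its 29 genes were below 0 with CoCl2, against 7256 of 14620 genes in all, and 26 without scaling. GTF2F2, a TFIIF subunit, was at 0.76 and 0.71 for Sp1 siRNA, and POLR2A, the largest polymerase subunit, at -0.52 and 0.10.

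RefSeq promoter windows of 300 bases, of which 250 lie before the start, were at hand for 47 of the 59 genes, with 59 windows. The core GGGCGG, read on both strands, was in 59.3% of these windows, against 61.3% of the windows of all genes measured on the arrays and 45.0% of all windows. The HIF core motifs ACGTG and GCGTG, which can overlap each other, were in 27.1% and 40.7%, against 24.0% and 45.6% for measured genes. For the 30 measured genes with a GC box core the median Sp1 siRNA ratio was 0.11 without and 0.10 with CoCl2, and for the 16 without one it was -0.10 in both. The ratios of the 2 groups overlapped widely, from -1.34 to 1.02 and from -1.48 to 0.70 without CoCl2.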

How the data were processed

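Total RNA of 4 OVSAYO cultures, 1 per condition, was labelled with Cy3 and hybridised to Agilent 4x44K arrays. The intensity values were deposited by the authors as written by Agilent Feature Extraction 10.5.1.1 (array annotation on hg18, per the submitters' processing notes and the file headers), after background subtraction and detrending and without normalization between arrays. The deposited flags of outlier spots and of spots well above background were used, and the deposited value table equals the processed intensity times 1 constant per array.

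From the log2 intensity of each non-control spot the 75th percentile of its array was subtracted, and spots of 1 probe, outlier spots left out, were averaged. A probe was well above background when at least 50% of its spots were. Accessions were matched to symbols in RefSeq (28463 of 29877 spots matched). The probe of highest mean signal stood for a gene, which was called at 2-fold. A gene well above background on only 1 array of a pair was called from a bound. For it the other level was raised to at least the lowest one well above background on that array. With such genes, the shares of all genes rest on 15127 genes for CoCl2 in NS-si cells. Medians and signs used the 14620 measured on both arrays, of which 555 were past 2-fold higher and 471 lower. The error from spots is the median SD of the 25 nearest of 264 10-spot probes. Depth has no meaning for arrays, and their number limits the precision.

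The genes, the lists and the roles were chosen with earlier results of these data known. Named are genes past 2-fold, the 5 highest and lowest of each ratio, genes with a 10-spot probe, and 20 subunits whatever their values. MED6, MED22, TAF11, TAF1B, TAF1C, TAF1L, TAF2, GTF2F2 and POLR2A were named after their values were seen. Alternatives were median scaling, quantile normalization, no scaling, a percentile taken over detected probes only, the value table of the authors, outlier spots kept, the mean over probes, genes well above background on all arrays, 1.5-fold, and a normexp correction of the median signals with an offset of 50, the last chosen after seeing the data because the planned one on mean signals could not be run without a mean column. The counting was tested on simulated data (200 of 200 planted probes recovered for CoCl2 in NS-si cells, 41000 probes). The planted changes were larger than 2-fold, the noise was small and dim probes were not planted, so full recovery was near certain. It checks the counting only and tells nothing of the precision of dim probes or of single arrays. Python 3.11.15, pandas 2.3.3, numpy 2.4.6, matplotlib 3.10.9, R 4.3.3 and limma 3.58.1 were used.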

Additional observations from a re-analysis of the deposited data

Results flagged for a closer look

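By the probe with the highest mean signal, 2 genes were past 2-fold in the difference. Their CoCl2 ratios went opposite ways in NS-si and Sp1-si cells, and the difference was not tested since each condition had 1 array. For MED1 the CoCl2 ratio of Sp1-si cells minus that of NS-si cells was -1.36 on the log2 scale (CoCl2 ratio 0.15 with NS-si and -1.21 with Sp1-si), and its other probes gave -0.90 and -1.03. Without scaling the NS-si ratio was -0.079, so that the signs no longer differed, and the difference was -0.90, not past 2-fold. For MED18 it was 1.47 (CoCl2 ratio -1.28 with NS-si and 0.19 with Sp1-si), from 1 dim probe. After the normexp correction these ratios were -0.23 and -0.10, and the difference 0.13.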

How the results depend on the processing

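No ratio past 2-fold changed sign under any alternative, but smaller ratios of the same genes did (CoCl2 in Sp1-si cells after normexp: MED18 -0.10 and TAF7L -0.19), and the counts of genes past 2-fold depended on the treatment of dim signals and of probes. The cause of the values below was not tested, beyond what the settings do by construction. No scaling shifts all ratios of a pair of arrays alike. The normexp offset of 50, added to every signal, draws ratios of dim signals toward 0, and its share in the counts was not tested. After the normexp correction, the genes past 2-fold were 0 for CoCl2 in NS-si cells, 0 for Sp1-si/NS-si, 0 for Sp1-si → CoCl2/NS-si → CoCl2 and 1 (MED1) for the difference of the CoCl2 ratios. Without scaling the counts were 0 for CoCl2 in Sp1-si cells and 8 for Sp1-si → CoCl2/NS-si → CoCl2, all higher. Without scaling CoCl2 in NS-si cells gave 1 higher and 3 lower (2 and 2 with scaling), and the difference 2 higher and 0 lower (1 and 1). With all probes of a gene averaged, the counts were 2 for Sp1-si/NS-si, 2 for Sp1-si → CoCl2/NS-si → CoCl2 and 4 for the difference, since MED13L and TAF9B left the first and TAF3 joined the second, TAF3 and MED13L joined the difference, and CoCl2 in Sp1-si cells had TAF3 past 2-fold in place of MED1. At 1.5-fold the counts were 12, 7, 10, 16 and 8 for the 4 ratios and the difference. The median of the genes became -0.24 (no scaling) and -0.091 (value table of the authors) for CoCl2 in NS-si cells, 0.045 (median scaling) and 0.16 (no scaling) for CoCl2 in Sp1-si cells, 0.065 (median scaling) and 0.35 (no scaling) for Sp1-si → CoCl2/NS-si → CoCl2, and 0.48 (no scaling) for the difference. Median scaling moved the median of all genes by 0.11 for CoCl2 in Sp1-si cells. Over the alternatives MED18 ranged from -1.50 to -0.23 for CoCl2 in NS-si cells, MED28 from 0.42 to 2.18 for Sp1-si → CoCl2/NS-si → CoCl2, MED1 from -1.26 to -0.94 for CoCl2 in Sp1-si cells, MED7 from -1.26 to -0.93, TAF4B from 0.84 to 1.22 and TAF7L from 0.49 to 1.27 for CoCl2 in NS-si cells, TAF9B from -1.39 to -0.85 and MED13L from 0.96 to 1.06 for Sp1-si/NS-si. Kept outlier spots, the percentile over probes well above background, quantile normalization and the restriction to genes well above background on all arrays moved no count past 1.5 times. The planned normexp on mean signals was not run. No paired analysis was possible because each condition had 1 array. Signals near background, as for MED18, MED28, TAF7L and TAF8, give the largest errors between spots.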

Other observations

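Across the 58 genes, the log2 length of the gene in RefSeq had Pearson's r of 0.34 with the CoCl2 ratio in NS-si cells and of -0.34 with the difference of the CoCl2 ratios, against 0.02 and -0.0042 across 14283 genes. It was 0.04 for CoCl2 in Sp1-si cells, 0.05 between Sp1-si and NS-si cells without CoCl2, and -0.24 with it. The ratios share arrays, and the values describe genes of the same 4 arrays.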
